A study of Mus musculus with 21 samples.

Results

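Left ventricles under pressure overload were compared after treatment with either of 2 phosphodiesterase inhibitors, sildenafil or PF-04449613. The comparison takes in 11 of the 21 small RNA libraries of the series, grouped by their labels, with 1 library per mouse. The choice of this comparison was made with earlier results of these data known. The group labelled TAC+PDE5A-I holds 5 C57BL/6J mice that had transverse aortic constriction (TAC) and then received sildenafil, an inhibitor of phosphodiesterase 5A. The group labelled TAC+PDE9A-I holds 6 C57BL/6J mice that had the same surgery and then received PF-04449613, an inhibitor of phosphodiesterase 9A. Dosing began 1 week after surgery in both groups and lasted 4 weeks, so the groups were matched in strain, surgery, tissue and treatment time, and all 11 mice carried the overload. Neither the doses nor the route, age or sex of the mice could be read from the labels. The remaining 10 libraries, from sham-operated mice and mice with TAC alone, enter no contrast here and serve only as context for library quality.

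Transverse aortic constriction narrows the aorta and makes the left ventricle thicken and later fail. Both enzymes degrade cyclic GMP, a messenger that restrains growth and stiffening of heart muscle. PDE5A is best known for acting on the cyclic GMP made downstream of nitric oxide, and PDE9A for acting on the pool made downstream of natriuretic peptides. A microRNA is a short RNA that represses messenger RNAs, which it finds chiefly through its seed, bases 2 to 8. Each hairpin precursor yields a 5p arm and a 3p arm, and both can be sequenced.

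The arms on which the comparison turns are printed 5′ to 3′ as RefSeq gives them on GRCm38.p6, with the seed in capitals. The first set holds arms from cells other than heart muscle and other arms with large differences: miR-142a is made in blood-forming cells, miR-144 in red blood cells, and miR-190a lies in an intron of the talin 2 gene.
miR-142a-5p: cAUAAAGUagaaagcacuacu
miR-144-3p: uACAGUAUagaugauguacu
miR-190a-5p: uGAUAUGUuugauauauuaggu
miR-148a-3p: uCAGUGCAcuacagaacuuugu
miR-301a-3p: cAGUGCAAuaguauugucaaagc
miR-455-5p: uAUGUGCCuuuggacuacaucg

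The second set holds the stress and muscle arms of the heart. miR-21a is the fibrosis-associated microRNA of loaded ventricles. miR-208a, miR-208b and miR-499 lie in introns of the myosin heavy chain genes Myh6, Myh7 and Myh7b. The arm of miR-208a is at chr14:54949072-54949093 and that of miR-208b at chr14:54975710-54975731, both on the minus strand, and that of miR-499 is at chr2:155622893-155622913 on the plus strand. miR-208a-3p and miR-208b-3p share the seed UAAGACG.
miR-21a-5p: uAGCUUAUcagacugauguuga
miR-208a-3p: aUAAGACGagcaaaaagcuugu
miR-208b-3p: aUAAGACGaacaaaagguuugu
miR-499-5p: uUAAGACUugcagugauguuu

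The miR-101 arms are shown because the whole of miR-101c, 19 bases at chr9:3038680-3038698 on the minus strand, is contained in miR-101a-3p as its bases 2 to 20.
miR-101a-3p: uACAGUACugugauaacugaa
miR-101b-3p: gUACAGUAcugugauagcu
miR-101c: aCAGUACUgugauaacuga

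These arms had higher average levels after sildenafil, and each has a GC content of 54.5% or more.
miR-125a-3p: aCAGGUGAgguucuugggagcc
miR-139-5p: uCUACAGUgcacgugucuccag
miR-8112: uCUCCGCCaccuccaccgca
miR-93-3p: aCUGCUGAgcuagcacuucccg

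The let-7 guide strands are shown because they share the seed GAGGUAG and differ by few bases, yet run from 31.8% GC in let-7f-5p to 45.5% GC in let-7b-5p.
let-7a-5p: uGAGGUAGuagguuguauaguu
let-7b-5p: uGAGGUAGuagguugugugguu
let-7c-5p: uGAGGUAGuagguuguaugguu
let-7f-5p: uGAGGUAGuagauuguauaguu

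The libraries of both groups differed among themselves in depth and base composition. Total counts were 3149080, 3969716, 1631406, 1387007 and 1205417 in TAC+PDE5A-I replicates 1 to 5. In TAC+PDE9A-I they were 6766222, 5788607, 5777580 and 7532591 in replicates 1 to 4, 1546318 in replicate 5 and 4785164 in replicate 6. Libraries under 2000000 counts, called shallow from here on, were therefore TAC+PDE5A-I replicates 3, 4 and 5 and TAC+PDE9A-I replicate 5, and every other library of the series held at least 3149080 counts. Arms matched by name to a RefSeq sequence held 32 to 37.2% of counts in the 4 shallow libraries. In the 7 deeper drug libraries they held 53 to 64.9%, so GC content leaves out most counts of the shallow ones. The count-weighted GC content of the matched arms was 46, 46, 47.7, 48.2 and 48.6% in TAC+PDE5A-I. It lay between 44.7 and 45.3% in the 5 TAC+PDE9A-I libraries other than replicate 5, which stood at 47.2%, while the 10 libraries without a drug spanned 44.6 to 45.1%. The first principal component, with 73.6% of the variance of the 11 libraries, placed TAC+PDE9A-I replicate 5 at 18.5, beside TAC+PDE5A-I replicates 3, 4 and 5 at 22.1 to 27.5. The other TAC+PDE5A-I libraries scored 1.81 and -4, and the other TAC+PDE9A-I libraries -20.5 to -15.9. Ear tags in the labels lay in the 500s for TAC+PDE5A-I replicates 1 and 2 and in the 600s for replicates 3 to 5. In TAC+PDE9A-I replicate 1 had a tag in the 100s, replicates 2 to 5 had tags in the 500s and replicate 6 had a tag in the 600s, so the shallow library of that group shared its tag range with deeper ones. Nothing in the labels says what the tag ranges stand for.

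**Figure D1:**
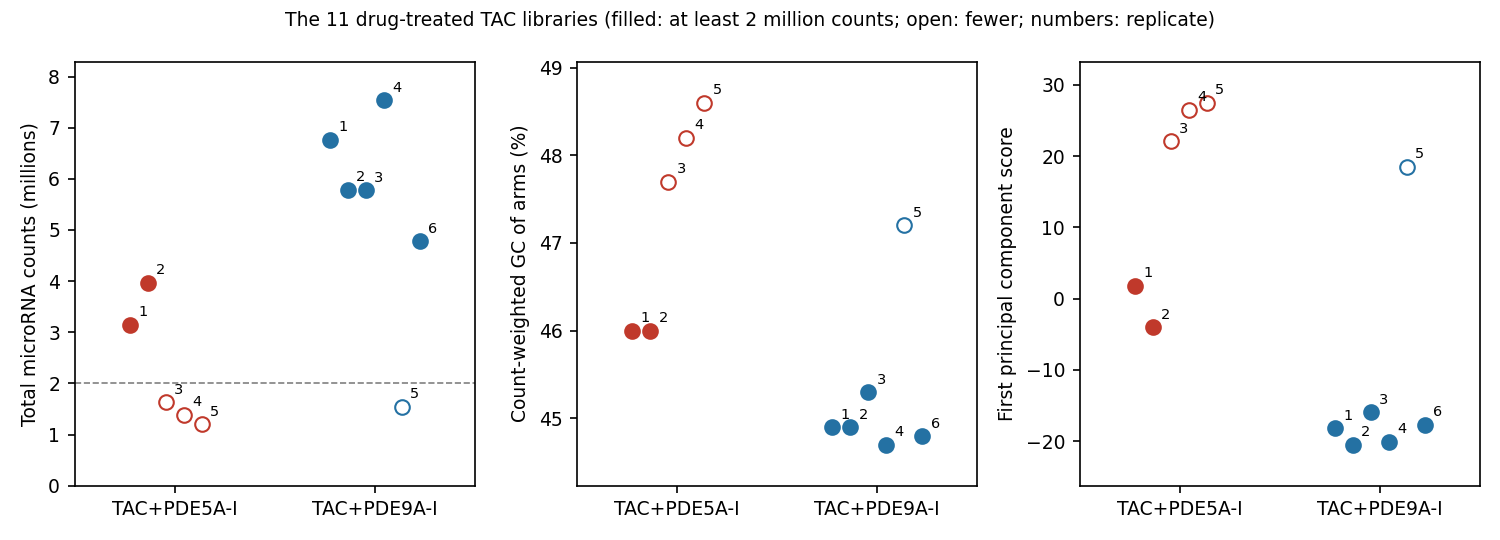
Total counts (divided by 1000000), count-weighted GC content in percent and the first principal component score for each library, with TAC+PDE5A-I left of TAC+PDE9A-I; each point is 1 mouse, numbered by replicate, filled at 2000000 counts or more and open below. TAC+PDE9A-I replicate 5 sits with the 3 open TAC+PDE5A-I points in all 3 panels, and the filled TAC+PDE5A-I points lie between those and the filled TAC+PDE9A-I points in GC content and component score. GC content covers only arms with a matched sequence.

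Of 11 measures per library compared by two-sided exact permutation tests over 462 arrangements, 5 had a Benjamini-Hochberg adjusted p of 0.0476 and the others did not pass. The mean total was 2268525 ± 1222970 counts for the sildenafil hearts and 5366080 ± 2094281 counts for the PF-04449613 hearts (SD, n = 5 and 6). GC content, over the arms with a matched sequence only, was 47.3 ± 1.21% in TAC+PDE5A-I and 45.3 ± 0.952% in TAC+PDE9A-I. The summed share of counts of the 4 arms of miR-143 and miR-145a, markers of vascular smooth muscle, was 2.05 ± 1.98% in TAC+PDE5A-I and 7.61 ± 3.38% in TAC+PDE9A-I. The 4 arms of miR-126, an endothelial marker, took 0.688 ± 0.762% in TAC+PDE5A-I and 2.76 ± 1.34% in TAC+PDE9A-I. Markers of tissues other than heart, such as miR-122 of liver and miR-9 of brain, took 0.0509 ± 0.0533% in TAC+PDE5A-I and 0.173 ± 0.0736% in TAC+PDE9A-I. These 5 differences lost their adjusted p under 0.05 when any library was left out other than TAC+PDE5A-I replicate 2 or TAC+PDE9A-I replicate 5. They also lost it without the shallow libraries, where 2 libraries against 5 cannot give a p under 0.0476 before adjustment. Within the PF-04449613 group, shallow replicate 5 held 1.21% smooth muscle and 0.326% endothelial markers. The deeper libraries of that group held 6.8 to 10.4% and 2.67 to 4.3%. The part of depth and base composition in these shares was not tested. In bulk tissue, fewer cells of a type and less RNA per cell cannot be told apart.

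Heart muscle microRNAs took a sizeable share of the counts in all 11 libraries, which are labelled left ventricle. Cardiac muscle microRNAs (17 arms of miR-1, miR-133, miR-206, miR-208, miR-486 and miR-499) took 30.4 to 59.2% of counts in TAC+PDE5A-I and 16.2 to 51.8% in TAC+PDE9A-I, with an adjusted p of 0.0619 by the exact permutation test. That list is not specific to heart, since miR-206 is also among the markers of other tissues. Within it miR-486b-5p alone took 11.8 to 30.5% of counts in TAC+PDE5A-I and 6.01 to 25.7% in TAC+PDE9A-I. miR-486b-5p, which lies in an intron of the ankyrin 1 gene and is nearly identical to miR-486a-5p, was among the most abundant arms, and in all 7 deeper libraries it was below miR-22-3p. It measured 136685, 112646, 286327, 240034 and 266778 CPM in TAC+PDE5A-I replicates 1 to 5. In TAC+PDE9A-I it measured 73817, 101802, 103307 and 61036 CPM in replicates 1 to 4, 235739 CPM in replicate 5 and 99539 CPM in replicate 6. CPM here and below are counts per 1000000, scaled by the trimmed mean of M-values (TMM). All shallow libraries of both groups were above every deeper library for this arm.

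Across the 11 libraries the test called no microRNA. edgeR's quasi-likelihood test with Benjamini-Hochberg adjustment over the 466 arms that passed the filter on low counts gave 0 higher and 0 lower calls (0% of those tested), and the lowest adjusted p was 0.0757. Before adjustment 162 arms (34.8%) had a p under 0.05, of which 70 (15%) were higher and 92 (19.7%) lower after sildenafil. DESeq2 on the same counts called 27 higher (5.79%) and 86 lower (18.5%), 24.2% together, with 55 adjusted p-values set to NA. A single fit of all 4 groups called 85 higher (15.2%) and 110 lower (19.6%) of 561, 34.8% together, and limma-voom with a weight per library called 99 higher (21.2%) and 172 lower (36.9%) of 466, 58.2% together. Single libraries moved the edgeR counts: without TAC+PDE9A-I replicate 5 it called 69 higher (14.7%) and 88 lower (18.8%) of 469, 33.5% together. Without TAC+PDE5A-I replicate 2 it called 9 higher and 21 lower of 478, and leaving out any other library gave 0 calls. The median log2 fold change of all arms tested was -0.21 with TMM, -0.07 with scaling by total counts and 0.25 with upper-quartile scaling, and the number of calls was 0 with each. Ranges that did not overlap between the 5 and the 6 libraries were found for 9 of 466 arms (1.93%). Of these, 7 were higher after sildenafil (1.5%), namely miR-125a-3p, miR-139-5p, miR-331-3p, miR-342-5p, miR-34a-5p, miR-378a-5p and miR-93-3p, and 2 were lower (0.429%), namely miR-26a-2-3p and miR-455-5p.

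**Figure D2:**
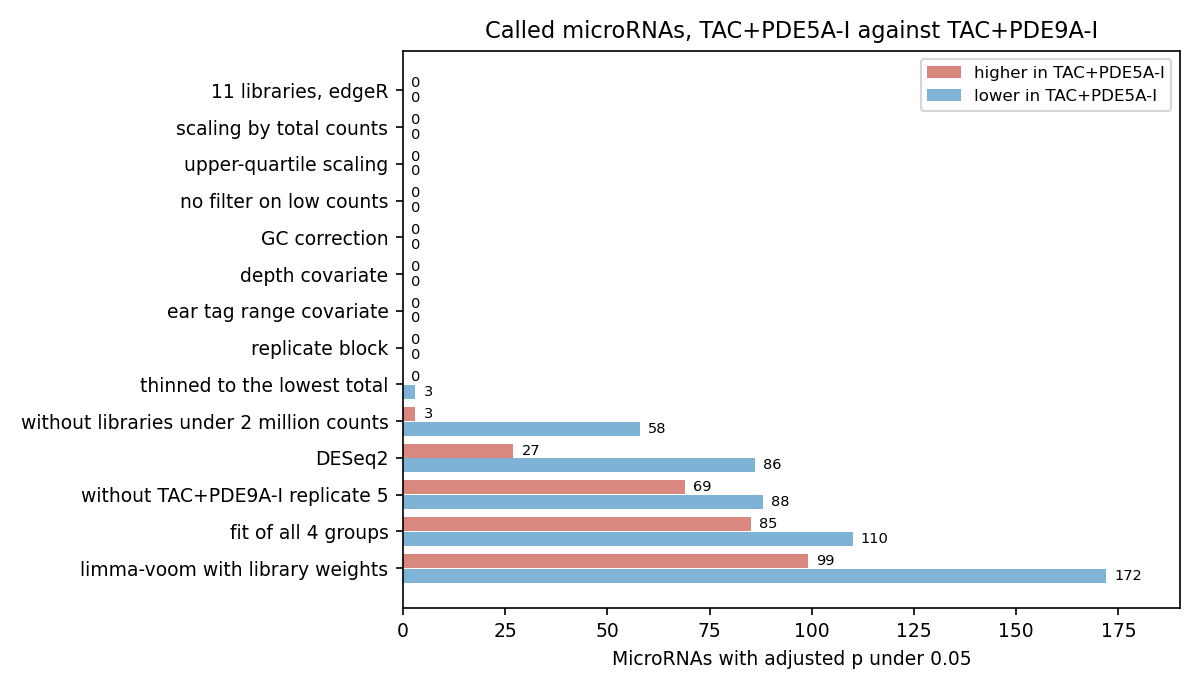
Number of microRNAs with an adjusted p under 0.05, higher (red) or lower (blue) in TAC+PDE5A-I than in TAC+PDE9A-I, for 14 ways of fitting the comparison; bars start at 0 and carry their count. The 8 settings at the top gave 0 calls in each direction, and the limma-voom fit with a weight per library gave the most, 99 higher and 172 lower.

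Without the 4 shallow libraries, 2 sildenafil hearts stood against 5 PF-04449613 hearts and 61 of 590 arms (10.3%) passed. Sildenafil hearts had lower levels of 58 arms (9.83%) and higher levels of 3 (0.508%). DESeq2 on these libraries called 31 higher (5.25%) and 98 lower (16.6%), 21.9% together, including all 61, and edgeR with scaling by total counts called 13 higher and 47 lower. Of the 61, the called arms include the muscle and stress microRNAs miR-1a-3p, miR-208a-3p, miR-208b-3p and miR-21a-5p, the blood cell microRNAs miR-142a-5p, miR-142a-3p and miR-144-3p, and all 3 miR-101 arms shown above. Most muscle and blood cell arms did not pass: 12 of 15 cardiac muscle, 6 of 9 leukocyte and 2 of 3 erythroid arms were not called. The group of 2 makes the counts unstable: without TAC+PDE5A-I replicate 1 the fit called 2 higher and 10 lower, and without TAC+PDE5A-I replicate 2 it called 10 higher and 42 lower. Leaving out TAC+PDE9A-I replicate 1, 2 or 4 gave 35, 36 or 38 lower calls, and leaving out replicate 1, 3 or 4 gave 1 higher call. Where 1 sildenafil library remained, its spread was taken to be that of the PF-04449613 group. Of the 18 arms named here that passed, 4 passed in all 7 fits that left out 1 library: let-7a-1-3p/let-7c-2-3p, miR-101c, miR-190a-5p and miR-5627-3p.

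The shallow libraries did not take part in that fit and are set beside it. The yardstick is not independent, since the 58 arms were called against the same deeper PF-04449613 libraries. Low positions are therefore partly fixed by that choice, and the same counts over all 590 arms are not given. Of the 58 arms that fell, TAC+PDE5A-I replicates 3, 4 and 5 lay below every deeper PF-04449613 library in 57, 57 and 58 arms. TAC+PDE9A-I replicate 5, which received the other drug, also lay below every deeper library of its own group in 57 of the 58. Low values of these arms were thus found in shallow libraries of both drugs. The lower arms were at 0 in 21, 23 and 23 cases in TAC+PDE5A-I replicates 3, 4 and 5 and in 19 cases in TAC+PDE9A-I replicate 5. The part of depth in these values was not tested. Depth also differed between the groups, and with the logarithm of total counts as a covariate edgeR called 0 of 466. The lowest edgeR adjusted p was 0.869, and 21 arms (4.51%) were under 0.05 before adjustment. After thinning every library to 1205417 counts edgeR called 0 higher and 3 lower of 340. miR-142a-5p was then at -4.04 and miR-21a-5p at -3.61 on the log2 scale, against -4.23 and -3.76 before thinning.

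miR-142a-5p had the lowest p of the 11-library fit. It measured 17.4, 16.4, 6.8, 3.07 and 13.8 CPM in TAC+PDE5A-I replicates 1 to 5. In TAC+PDE9A-I it measured 185, 406, 141 and 396 CPM in replicates 1 to 4, 10.1 CPM in replicate 5 and 177 CPM in replicate 6. Replicate 5 alone brought the groups into overlap. The log2 fold change was -4.23 ± 0.82 (SE) over the 11 libraries (edgeR adjusted p = 0.0757). It was -3.98 ± 0.62 without the shallow ones, where the adjusted p was 0.015 by edgeR and 0.088 at most when 1 library was left out; the call was lost without either sildenafil library.

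The other arm of the same hairpin, miR-142a-3p, measured 161, 254, 14.3, 0 and 13.8 CPM in TAC+PDE5A-I. In TAC+PDE9A-I it measured 603 to 1411 CPM in the deeper libraries and 33.8 CPM in replicate 5. It fell by 2.14 ± 0.42 on the log2 scale without the shallow libraries (edgeR adjusted p = 0.0218), a call lost without either sildenafil library or without TAC+PDE9A-I replicate 2. The summed share of the leukocyte list showed no detectable difference. Its 10 arms, which also include miR-150, miR-155, miR-223, miR-146a-5p and miR-342-3p, summed to 0.29 to 0.359% of counts in TAC+PDE5A-I and 0.269 to 0.38% in TAC+PDE9A-I, with an exact permutation p of 0.946. Of the 9 leukocyte arms tested without the shallow libraries, 3 fell and 0 rose, against 9.83% lower and 0.508% higher over all 590 arms, and the median log2 fold change was -0.06, against -0.07 over all arms. With a correction of each library for the GC content of its arms, miR-142a-3p came to -0.65 ± 0.30 (edgeR adjusted p = 0.253) and was not called.

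Red blood cell arms were at low levels, and 1 of 3 fell without the shallow libraries, against 9.83% of all 590 arms. Their median log2 fold change was -2.11, against -0.07 over all arms. With GC correction 0 of 3 were called, with a median of -0.18, against 0.06 over all arms. miR-144-3p measured 3.43, 4.58, 3.4, 1.23 and 3.63 CPM in TAC+PDE5A-I. It ranged from 20.7 to 194 CPM in the deeper TAC+PDE9A-I libraries and was 3.56 CPM in replicate 5. Its log2 fold change was -4.27 ± 1.08 without the shallow libraries (edgeR adjusted p = 0.0499), and the call held in 2 of the 7 fits that left out 1 library; with GC correction it was -2.20 ± 0.81 and not called (adjusted p = 0.18). miR-451a, which is processed from a hairpin beside that of miR-144, measured 221, 413, 44.9, 20.9 and 16.7 CPM in TAC+PDE5A-I. It ranged from 262 to 1124 CPM in the deeper TAC+PDE9A-I libraries and was 46.2 CPM in replicate 5. The miR-451a values overlapped even without the shallow libraries, and the log2 fold change of -1.01 ± 0.58 did not pass (edgeR adjusted p = 0.319). The 3 erythroid arms summed to 0.00257 to 0.0469% of counts in TAC+PDE5A-I and 0.00647 to 0.131% in TAC+PDE9A-I; the part of blood in the samples was not tested.

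**Figure D3:**
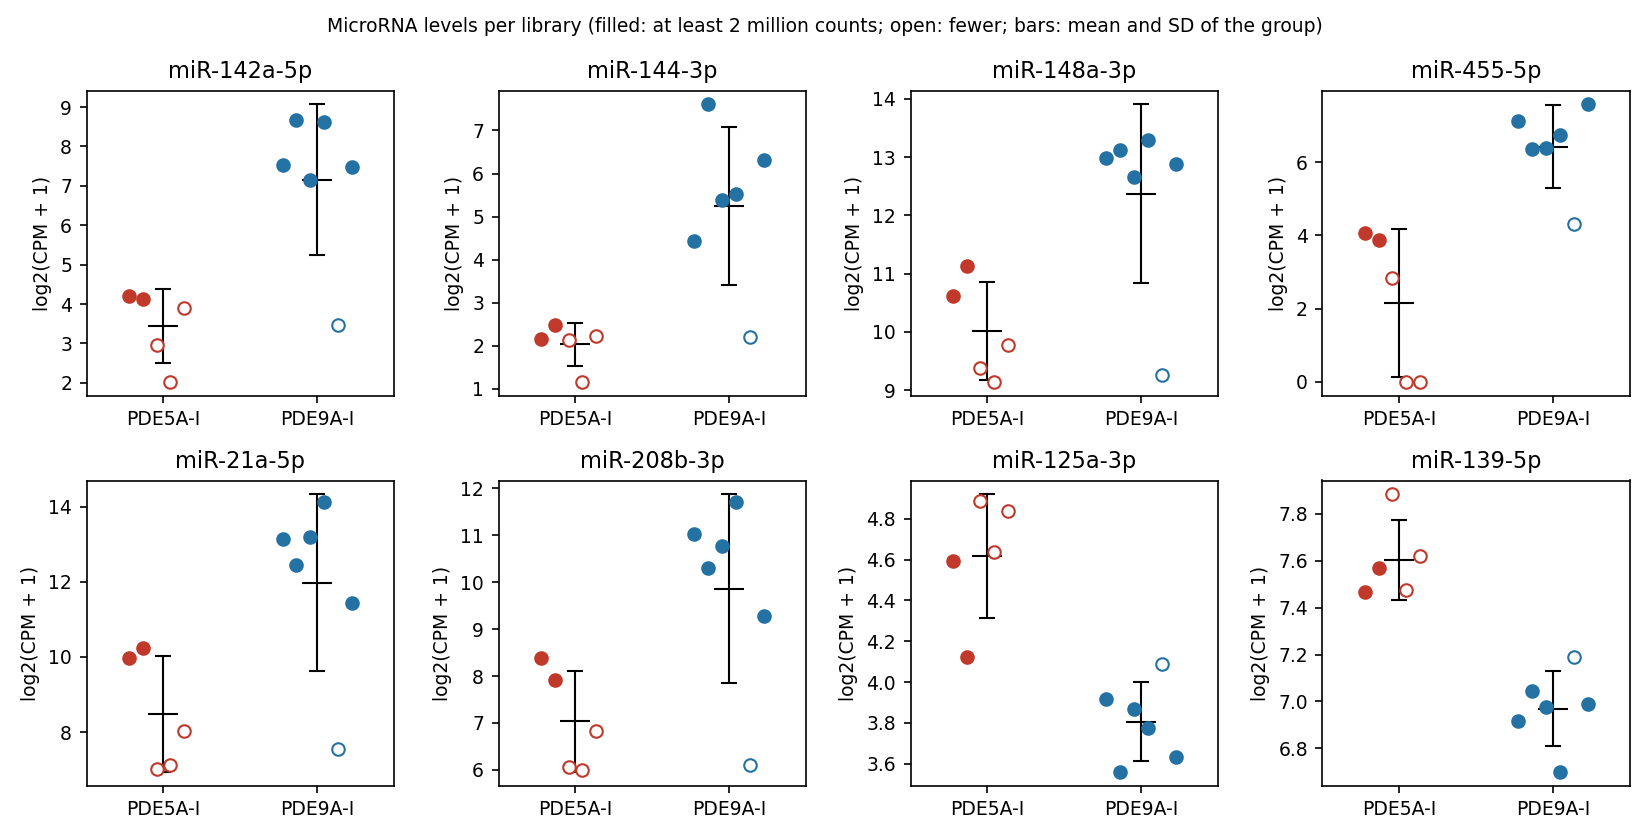
Levels of 8 microRNAs as log2(CPM + 1), 1 point per mouse, with TAC+PDE5A-I left of TAC+PDE9A-I; filled points are libraries of at least 2000000 counts, open points are shallower, and bars give the mean and SD of each group. For the 6 arms that averaged lower in TAC+PDE5A-I the open TAC+PDE9A-I point (replicate 5) lies far under the filled ones, while for miR-125a-3p and miR-139-5p the groups do not overlap.

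Among the muscle and stress arms, miR-21a-5p measured 1003, 1211, 130, 139 and 263 CPM in TAC+PDE5A-I. In TAC+PDE9A-I it measured 9042, 5556, 9278 and 17732 CPM in replicates 1 to 4, 186 CPM in replicate 5 and 2776 CPM in replicate 6. Every sildenafil heart was below every deeper PF-04449613 heart, and the 4 shallow libraries of both groups held the 4 lowest values. The log2 fold change was -3.76 ± 1.03 over 11 libraries (edgeR adjusted p = 0.0757) and -3.02 ± 0.73 without the shallow ones, an 8.09-fold lower level (edgeR adjusted p = 0.0441). That call held in 2 of 7 fits that left out 1 library, with adjusted p-values up to 0.288.

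miR-208b-3p, the microRNA of the slow myosin gene Myh7, measured 332, 240, 66, 62.6 and 113 CPM in TAC+PDE5A-I. It ranged from 617 to 3357 CPM in the deeper TAC+PDE9A-I libraries and was 68.2 CPM in replicate 5. It fell by 2.68 ± 0.66 on the log2 scale without the shallow libraries (edgeR adjusted p = 0.0476). miR-208a-3p, from the adult myosin gene Myh6, measured 86.3, 130, 11.6, 7.36 and 10.2 CPM in TAC+PDE5A-I, against 346 to 1057 CPM in the deeper TAC+PDE9A-I libraries and 21.3 CPM in replicate 5. Its log2 fold change of -2.46 ± 0.59 passed as well (edgeR adjusted p = 0.0441), but with GC correction it was -1.10 ± 0.45 and did not (adjusted p = 0.225). Both myosin arms averaged lower after sildenafil, and with GC correction miR-208b-3p did not pass either (-0.84 ± 0.64, edgeR adjusted p = 0.492). As background, the host genes Myh6 and Myh7 are known for moving in opposite directions in rodent hypertrophy. Their messenger RNAs were not measured in these small RNA libraries. miR-499-5p measured 161, 335, 53.7, 12.9 and 29 CPM in TAC+PDE5A-I, against 449 to 1330 CPM in the deeper TAC+PDE9A-I libraries and 46.2 CPM in replicate 5, and its log2 fold change of -1.69 ± 0.55 did not pass (edgeR adjusted p = 0.101). The miR-208b-3p and miR-208a-3p calls held in 1 and 2 of the 7 fits that left out 1 library.

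miR-1a-3p, a muscle-specific microRNA, and miR-133a-3p are transcribed together. miR-1a-3p measured 831, 1114, 42.9, 33.1 and 60.2 CPM in TAC+PDE5A-I. In the deeper TAC+PDE9A-I libraries it ranged from 2431 to 7654 CPM, and in replicate 5 it was 116 CPM. It fell by 2.28 ± 0.53 on the log2 scale without the shallow libraries (edgeR adjusted p = 0.0395; called in 2 of 7 fits that left out 1 library). miR-133a-3p measured 158483, 150079, 252356, 175634 and 189284 CPM in TAC+PDE5A-I, against 82278 to 151057 CPM in the deeper TAC+PDE9A-I libraries and 185152 CPM in replicate 5. The log2 fold change of miR-133a-3p was 0.30 ± 0.24 without the shallow libraries (edgeR adjusted p = 0.463) and 0.47 over the 11 libraries, with a 95% interval of -0.05 to 0.98 (adjusted p = 0.178), so it passed in neither fit. Of the 15 cardiac muscle arms tested without the shallow libraries, 3 fell and 0 rose, against 9.83% lower and 0.508% higher over all 590 arms, and the median was -0.01, against -0.07 over all arms (0.19 and 0.09 with scaling by total counts).

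Lists of microRNAs known as raised or lowered in hypertrophy were read in the same way; the difference between the lists was not tested. Of 30 arms listed as raised, 3 fell without the shallow libraries and 0 rose, with a median log2 fold change of -0.56. Of 30 arms listed as lowered, 7 fell and 0 rose, with a median of -0.36. Over all 590 arms 9.83% fell and 0.508% rose, and the median was -0.07, which scaling by total counts moved to 0.09. With GC correction 2 rose and 0 fell in each list, and the medians were -0.23 for the list of raised arms and 0.18 for the list of lowered arms, against 0.06 over all arms. miR-34a-5p, a stress-induced microRNA, measured 196 to 262 CPM in TAC+PDE5A-I and 137 to 196 CPM in TAC+PDE9A-I; its log2 fold change was 0.36 with a 95% interval of -0.01 to 0.73 (edgeR adjusted p = 0.155). The cluster of miR-212 and miR-132, which promotes hypertrophy in mice, had 0 of 4 arms called and a median of 0.23. miR-132-3p averaged 474 ± 125 CPM in TAC+PDE5A-I and 416 ± 120 CPM in TAC+PDE9A-I (SD, n = 5 and 6), and its log2 fold change of 0.19 had a 95% interval of -0.38 to 0.76.

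The stromal and matrix groups are given against the same 9.83% lower and 0.508% higher over all arms. In the group of miR-199 and miR-214, 0 of 5 arms passed without the shallow libraries, with a median log2 fold change of -1.21. miR-199a-5p measured 376, 281, 171, 168 and 173 CPM in TAC+PDE5A-I, against 225 to 1499 CPM in the deeper TAC+PDE9A-I libraries and 116 CPM in replicate 5, so the groups overlapped with and without the shallow libraries. miR-214-3p from the same transcript as miR-199a averaged 448 ± 173 CPM in TAC+PDE5A-I and 303 ± 215 CPM in TAC+PDE9A-I; its log2 fold change was 0.56 over 11 libraries and -0.21 without the shallow ones, neither of which passed. Of 7 arms of the miR-29 family, known for repressing collagens, 2 fell and 0 rose without the shallow libraries, with a median of -0.20, whereas with GC correction 1 rose and 0 fell, with a median of 0.50. miR-29a-3p averaged 3182 ± 965 CPM in TAC+PDE5A-I and 4968 ± 1132 CPM in TAC+PDE9A-I, with a log2 fold change of -0.64 and a 95% interval of -1.22 to -0.06 (edgeR adjusted p = 0.124). Of 12 arms of the miR-30 family 2 fell, with a median of -0.25 that GC correction turned to 0.12 over 8 arms with 0 calls, and miR-30a-5p had a log2 fold change of -1.23 ± 0.54 over 11 libraries (edgeR adjusted p = 0.134). The members of these families differ by few bases, and reads of one can be counted for another.

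The vessel and growth groups, which are small, are read against the same shares. Of the 4 smooth muscle arms 2 fell without the shallow libraries, with a median of -0.79, but miR-145a-5p averaged 831 ± 125 CPM in TAC+PDE5A-I and 686 ± 144 CPM in TAC+PDE9A-I, a log2 fold change of 0.28 with a 95% interval of -0.16 to 0.71. Of the 4 endothelial arms 2 fell, with a median of -1.18, and with GC correction 0 of 3 were called, with a median of 0.15, while miR-126a-3p measured 7016, 8349, 1652, 742 and 434 CPM in TAC+PDE5A-I, against 6842 to 12767 CPM in the deeper TAC+PDE9A-I libraries and 2045 CPM in replicate 5. The 2 deeper sildenafil hearts fell inside the range of the deeper PF-04449613 hearts for this arm, and its log2 fold change without the shallow libraries was -0.32 ± 0.29. The miR-15/16 family, which restrains the cell cycle, had 2 of 12 arms lower and a median of -0.99; with GC correction 2 rose and 0 fell, with a median of -0.16. In the miR-17-92 cluster and its paralogs 1 of 15 arms rose and 1 fell, with a median of -0.06 that turned to 0.09 with scaling by total counts. Of 52 arms from the imprinted Dlk1-Dio3 cluster 4 fell and 0 rose, with a median of -0.28 that GC correction turned to 0.01. Of 15 markers of other tissues 1 fell, with a median of -0.68; with GC correction 0 of 12 were called, with a median of 0.13. miR-22-3p, abundant in heart muscle, measured 172052, 185019, 132054, 81917 and 69023 CPM in TAC+PDE5A-I, against 178148 to 233136 CPM in the deeper TAC+PDE9A-I libraries and 114317 CPM in replicate 5 (log2 fold change -0.56 ± 0.30, edgeR adjusted p = 0.195). miR-146b-5p, a brake on inflammatory signalling, averaged 53.7 ± 38.7 CPM in TAC+PDE5A-I and 130 ± 72.7 CPM in TAC+PDE9A-I, and its log2 fold change of -1.26 had a 95% interval of -2.61 to 0.08.

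Differences varied with the base composition of the arms. Over the 11 libraries the median log2 fold change was -2.35 in 70 arms under 40% GC, -0.84 in 125 arms of 40 to 50%, 0.18 in 142 arms of 50 to 60% and 0.65 in 70 arms of 60% or more. Without the shallow libraries the 4 medians were -1.71, -0.47, 0.16 and 0.41. Spearman's rho between GC content and log2 fold change was 0.759 over 407 arms with a sequence, and 0.559 over 512 without the shallow libraries; these are descriptions across arms that share libraries, with no test. The arms that fell without the shallow libraries numbered 31 of 86 under 40% GC, 15 of 166 at 40 to 50%, 3 of 168 at 50 to 60% and 1 of 92 above. miR-190a-5p, at 22.7% GC the lowest of the sequences printed above, measured 2.8, 6.75, 2.04, 1.84 and 2.9 CPM in TAC+PDE5A-I. It measured 34.7 to 40.6 CPM in the deeper TAC+PDE9A-I libraries and 1.19 CPM in replicate 5. It fell by 2.96 ± 0.37 on the log2 scale without the shallow libraries (edgeR adjusted p = 0.00833).

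**Figure D4:**
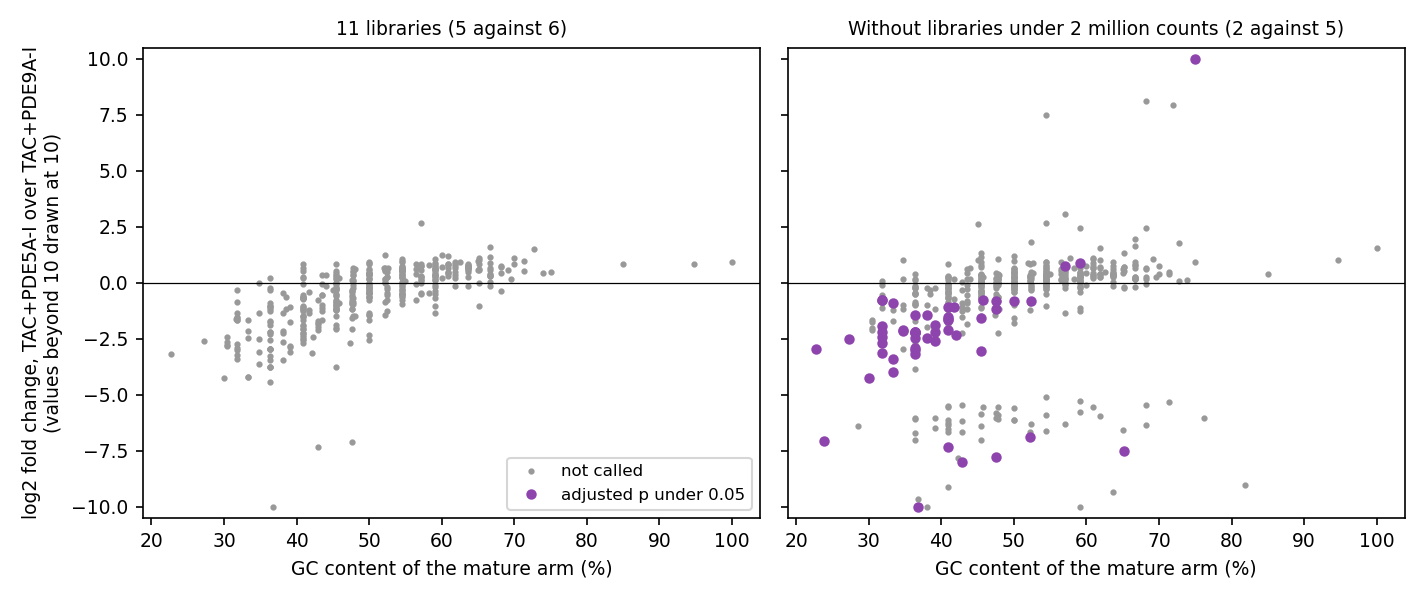
log2 fold change of TAC+PDE5A-I over TAC+PDE9A-I (vertical) against the GC content of the mature arm in percent (horizontal), 1 point per microRNA, for the 11 libraries on the left and without the 4 libraries under 2000000 counts on the right; purple points had an adjusted p under 0.05. Points rise with GC content in both panels, with medians of -2.35 and -1.71 under 40% GC and 0.65 and 0.41 at 60% or more; points under -5 are arms at 0 in every sildenafil library of the fit, whose fitted values are not bounds.

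A correction of each library for GC content changed which arms passed. Over the 11 libraries it left 0 of 407 called by edgeR, with 96 (23.6%) under 0.05 before adjustment. Without the shallow libraries it gave 24 higher (4.69%) and 13 lower (2.54%) of 512, 7.23% together. Of the 53 called arms that have a sequence, 14 were still called in the same direction and 3 turned sign. The 14 were let-7a-1-3p/let-7c-2-3p, miR-101a-3p, miR-101b-3p, miR-101c, miR-142a-5p, miR-148a-3p, miR-215-5p, miR-301a-3p, miR-33-5p, miR-337-3p, miR-455-5p, miR-5627-3p, miR-6911-3p and miR-7033-5p. miR-208b-3p with the correction had a log2 fold change of -0.84 ± 0.64 (edgeR adjusted p = 0.492) and miR-21a-5p of -1.67 ± 0.65 (adjusted p = 0.208). miR-499-5p came to -0.09 ± 0.39 and miR-190a-5p to -0.40 ± 0.26, so neither passed. The arms miR-1a-3p, miR-133a-3p, miR-145a-5p and miR-486b-5p had no matched sequence and were not in this fit.

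**Figure D5:**
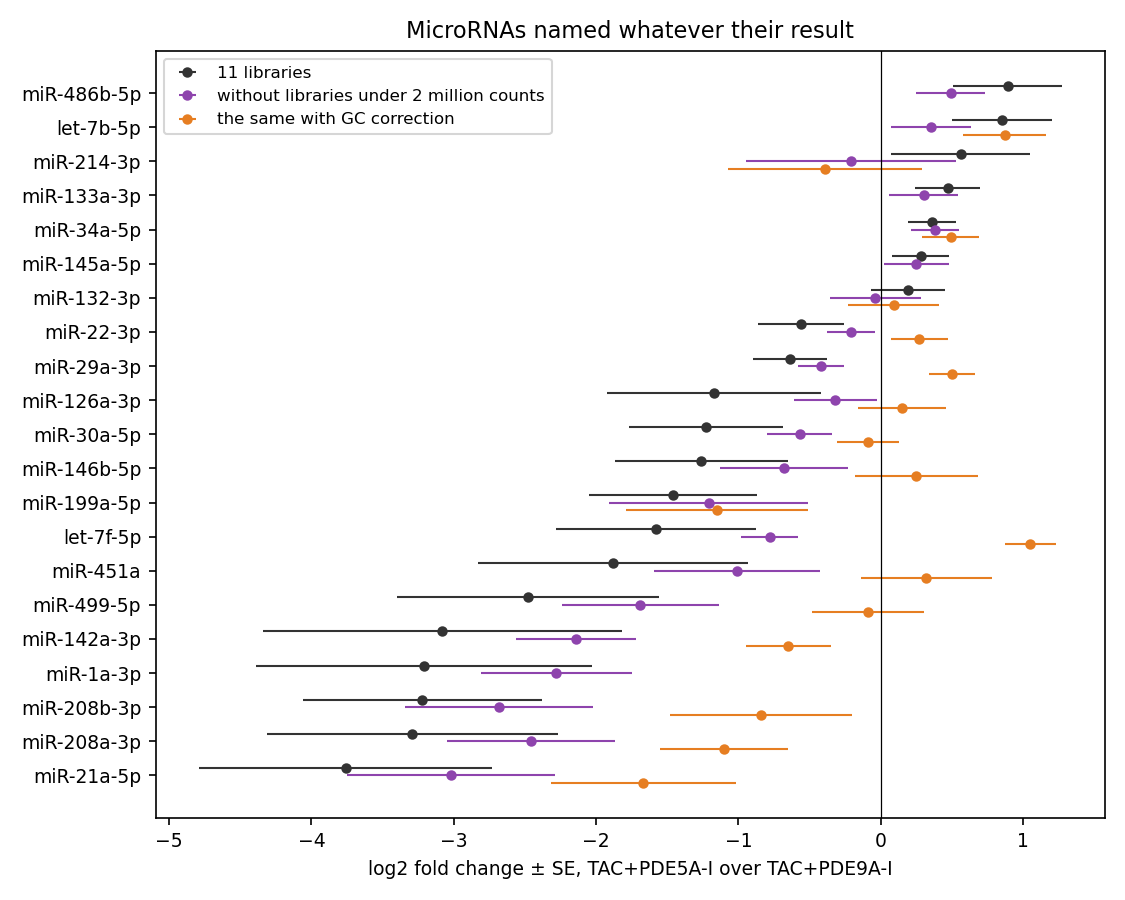
log2 fold change ± SE of TAC+PDE5A-I over TAC+PDE9A-I for 21 heart, vessel and blood microRNAs named whatever their result, over the 11 libraries (black), without libraries under 2000000 counts (purple) and without them with GC correction (orange, where a sequence was matched). Most low values move toward 0 from black to purple to orange, as for miR-499-5p with -2.48, -1.69 and -0.09, and let-7f-5p crosses 0 with -1.58, -0.78 and 1.05.

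Among the arms that remained with the correction, miR-148a-3p measured 1568, 2249, 667, 564 and 872 CPM in TAC+PDE5A-I. In TAC+PDE9A-I it measured 8084, 8944, 6461 and 10080 CPM in replicates 1 to 4, 613 CPM in replicate 5 and 7501 CPM in replicate 6. Both deeper sildenafil hearts lay below every deeper PF-04449613 heart and above all 4 shallow libraries. Its log2 fold change was -2.13 ± 0.27 without the shallow libraries (edgeR adjusted p = 0.00833) and -1.22 ± 0.18 with the correction (adjusted p = 0.0127), and the first call was lost without TAC+PDE5A-I replicate 1 (adjusted p = 0.0649). miR-301a-3p averaged 57.3 ± 22.9 CPM in the deeper TAC+PDE5A-I libraries and 345 ± 84.7 CPM in the deeper TAC+PDE9A-I libraries (SD, n = 2 and 5), but was 10.1 CPM in TAC+PDE9A-I replicate 5. Its log2 fold changes were -2.61 ± 0.38 and, with the correction, -1.55 ± 0.25 (edgeR adjusted p = 0.0118 and 0.0138).

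Of the arms with values given here, miR-455-5p alone was lower with no overlap over all 11 libraries. It measured 15.6, 13.7, 6.12, 0 and 0 CPM in TAC+PDE5A-I, against 139, 81.1, 83.4 and 106 CPM in TAC+PDE9A-I replicates 1 to 4, 19 CPM in replicate 5 and 190 CPM in replicate 6. Replicate 5 was again the lowest of its group, here just above the highest sildenafil heart. The log2 fold change was -3.05 ± 0.45 without the shallow libraries and -2.57 ± 0.45 with GC correction (edgeR adjusted p = 0.0118 and 0.0188). The joined entry let-7a-1-3p/let-7c-2-3p, 2 passenger strands that the counting could not separate, measured 20.6, 19, 0, 3.68 and 0 CPM in TAC+PDE5A-I, against 122 to 191 CPM in the deeper TAC+PDE9A-I libraries and 9.49 CPM in replicate 5. It fell by 2.93 ± 0.28 on the log2 scale and passed in every fit that left out 1 library (edgeR adjusted p from 0.00353 to 0.0278). Of the 11 let-7 passenger strand entries tested, 2 fell and 0 rose, against 9.83% lower and 0.508% higher over all 590 arms. Their median was 0.05, against -0.07 over all arms. GC correction turned it to -0.20, against 0.06 over all arms.

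miR-101c was at 0 in every sildenafil heart. Its counts in TAC+PDE9A-I were 6878, 6416, 2639 and 9676 in replicates 1 to 4, 0 in replicate 5 and 5330 in replicate 6. Taking 3 counts per library as the limit that a count of 0 allows, the level in the deeper libraries was at least 1296-fold lower after sildenafil. miR-101a-3p, which contains the whole of the miR-101c sequence printed above, was present in all but 1 sildenafil library, with 842, 1198, 51, 0 and 90 counts. In the 15 libraries of the series with miR-101c counts, which were 5 sham, 5 TAC and the 5 deeper TAC+PDE9A-I libraries, these were 33.9 to 39.1% of the miR-101a-3p counts. In TAC+PDE5A-I replicates 1 and 2 a count of 0 allows at most 0.356 and 0.25% of miR-101a-3p, and in TAC+PDE9A-I replicate 5, with 131 counts of miR-101a-3p, at most 2.29%. These limits cover counting error only. As reads of the 2 arms cannot be told apart by sequence where they are 19 bases long, the miR-101c values carry that uncertainty. miR-101a-3p itself measured 276 ± 18.8 CPM in the deeper TAC+PDE5A-I libraries and 2899 ± 997 CPM in the deeper TAC+PDE9A-I libraries, with log2 fold changes of -3.42 ± 0.51 and, after GC correction, -1.73 ± 0.36 (edgeR adjusted p = 0.0122 and 0.031).

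In all, 9 microRNAs were at 0 in the 5 sildenafil libraries and counted in all 5 deeper PF-04449613 libraries. They were miR-101c, miR-190a-3p, miR-208b-5p, miR-33-5p, miR-337-3p, miR-369-3p, miR-376a-5p, miR-6911-3p and miR-6929-3p. Apart from miR-101c their counts were 6 to 44 in each deeper PF-04449613 library, and all 9 were also at 0 in TAC+PDE9A-I replicate 5. Only 3 of the 9 were counted in all 10 libraries without a drug. Neither the share over all arms nor the matching count in the opposite direction is given. The part of the lower depth of the sildenafil libraries in these zeros was not tested. In the opposite direction miR-5627-3p had 434 and 585 counts in TAC+PDE5A-I replicates 1 and 2 and 0 counts in the other 3 sildenafil libraries and in all 6 PF-04449613 libraries. Against 3 counts per library the level in the deeper libraries was at least 256-fold higher after sildenafil. The same arm had 484 counts in 1 sham library and 453 in 1 library of TAC alone and 0 in the rest.

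Of the other arms with higher average levels after sildenafil, miR-125a-3p measured 23.1, 16.4, 28.6, 23.9 and 27.6 CPM in TAC+PDE5A-I and 14.1, 10.8, 13.6, 12.7, 16 and 11.4 CPM in TAC+PDE9A-I replicates 1 to 6. Its log2 fold change was 0.86 ± 0.20 over 11 libraries (edgeR adjusted p = 0.0757) and 0.64 ± 0.20 without the shallow ones (adjusted p = 0.0937). miR-139-5p measured 176, 189, 235, 177 and 196 CPM in TAC+PDE5A-I, against 103 to 145 CPM in TAC+PDE9A-I, and its log2 fold change was 0.64 ± 0.16 over 11 libraries and 0.57 ± 0.15 without the shallow ones (edgeR adjusted p = 0.0757 and 0.0538). For both arms every sildenafil heart was above every PF-04449613 heart, replicate 5 included. The ranges of miR-125a-3p nearly met, at 16.4 CPM (68 counts) in TAC+PDE5A-I replicate 2 and 16 CPM (27 counts) in TAC+PDE9A-I replicate 5. Without the shallow libraries and with GC correction miR-125a-3p came to 0.40 ± 0.20 and miR-139-5p to 0.47 ± 0.19. Neither passed (edgeR adjusted p = 0.312 and 0.224). miR-93-3p measured 13.1, 17.8, 21.1, 16.6 and 10.9 CPM in TAC+PDE5A-I, against 6.54 to 10.7 CPM in TAC+PDE9A-I, and it rose by 0.88 ± 0.22 on the log2 scale without the shallow libraries (edgeR adjusted p = 0.0493, lost in each of the 7 fits that left out 1 library). miR-664-5p averaged 35.2 ± 5.76 CPM in the deeper TAC+PDE5A-I libraries and 20.7 ± 2.23 CPM in the deeper TAC+PDE9A-I libraries (edgeR adjusted p = 0.044), and TAC+PDE9A-I replicate 5 was at 52.8 CPM. That call held in 1 of 7 fits that left out 1 library (adjusted p up to 0.197), and it was absent with GC correction (adjusted p = 0.158) and over the 11 libraries (adjusted p = 0.13). miR-8112 averaged 48.6 ± 16.7 CPM in TAC+PDE5A-I and 22.3 ± 8.14 CPM in TAC+PDE9A-I, with replicate 5 at 38.5 CPM (edgeR adjusted p = 0.0757). Without the shallow libraries and with GC correction miR-93-3p came to 0.64 ± 0.21 and miR-8112 to 0.23 ± 0.24 (edgeR adjusted p = 0.137 and 0.669).

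The let-7 guide strands, which repress growth genes, share 1 seed. Of 9 tested without the shallow libraries 2 fell and 0 rose, against 9.83% lower and 0.508% higher over all 590 arms. Their median was 0.12, against -0.07 over all arms, with 5 positive and 4 negative values. With GC correction all 9 were positive, 6 rose (against 4.69% of all arms in that fit) and 0 fell, with a median of 1.06. let-7f-5p measured 11370, 11276, 2628, 1549 and 955 CPM in TAC+PDE5A-I, against 15349 to 21625 CPM in the deeper TAC+PDE9A-I libraries and 3766 CPM in replicate 5. Its log2 fold change was -0.78 ± 0.20 without the shallow libraries (edgeR adjusted p = 0.0493) and 1.05 ± 0.18 with GC correction (adjusted p = 0.0152), so the correction turned a called direction round. let-7b-5p measured 4226, 2132, 6335, 5784 and 7609 CPM in TAC+PDE5A-I, against 1990 to 2957 CPM in the deeper TAC+PDE9A-I libraries and 5021 CPM in replicate 5. Its log2 fold change was 0.85 ± 0.35 over 11 libraries and 0.35 ± 0.28 without the shallow ones, and neither passed. The let-7 arms differ by few bases, so counts of 1 member can include reads of another.

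Both arms of a hairpin come from 1 transcript, and 164 hairpins had both arms tested without the shallow libraries. Both arms fell for 4 of them, miR-136, miR-142a, miR-152 and miR-98, and no hairpin had arms called in opposite directions. For 37 hairpins 1 arm was called and the other was not, and in 50 the log2 fold changes of the 2 arms had opposite signs.

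Within the ear tag range of the 500s, 2 sildenafil hearts stood against 4 PF-04449613 hearts, replicate 5 included. edgeR called 0 of 544 arms there, and 20 arms (3.68%) were under 0.05 before adjustment. The lowest edgeR adjusted p, 0.0901, was that of miR-5627-3p, the arm at 0 in all PF-04449613 libraries. Without the shallow library the 500s held 2 hearts against 3, and 1 arm rose (again miR-5627-3p) and 3 fell of 558. miR-148a-3p then had a log2 fold change of -2.17 (edgeR adjusted p = 0.0724) and miR-455-5p of -2.62 (adjusted p = 0.0266). In the 600s, 3 sildenafil hearts, all shallow, stood against 1 PF-04449613 heart, and in the 100s there was 1 PF-04449613 heart and no sildenafil heart, so these ranges gave no test. Both drugs had shallow and deeper libraries, in unequal numbers (3 and 2 for sildenafil, 1 and 5 for PF-04449613), and the fits with depth or ear tag range as a covariate called 0 arms.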

How the data were processed

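Per the labels' protocols, RNA from flash-frozen left ventricle was extracted with a miRNeasy kit and made into TruSeq small RNA libraries. Each deposited value is a raw count of reads per mature microRNA that the authors had not normalised. Tools named in the submitters' processing notes are Bowtie 1.1.1, CASAVA 1.8.4, DESeq 1.26.0 and cutadapt 1.8; which build and annotation were used is not given in the sources used here. The table has 1903 named lines among 25958, and the 24055 blank lines were left out. No value equals 1, and 12 names join near-identical microRNAs.

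Counts of the 11 libraries were filtered with filterByExpr, scaled by TMM and fitted with edgeR 4.0.16 (robust quasi-likelihood; R 4.3.3), with Benjamini-Hochberg adjustment over all microRNAs tested and a call at an adjusted p under 0.05. Fold changes are TAC+PDE5A-I over TAC+PDE9A-I. The fit was repeated, filter and scaling included, without libraries under 2000000 counts. The steps were run on simulated counts with a fixed spread and no differences in base composition between libraries. That run therefore did not check how the steps handle such differences. Alternatives were other scalings, no filter, GC and depth corrections, thinning to 1205417 counts, ear tag range, replicate block, all 4 groups, DESeq2 1.42.0, limma 3.58.1 (voom with library weights) and each library left out. The GC correction was a loess of span 0.75 per library on the GC content of RefSeq sequences, matched by name for 1618 microRNAs, which held 32 to 64.9% of the counts of the 11 libraries. Library measures were compared by exact permutation.

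Named microRNAs were the 8 lower and 8 higher with the smallest p, or 3 where fewer than 3 passed, with a mean of at least 10 CPM; 22 named whatever their result; and, added after values were seen, the 8 lower and 3 higher called without shallow libraries. The libraries compared, the lists and their members were chosen with earlier results of these data known. The labels name separate mice but no separate extractions, so p-values measure the spread between these libraries. Totals of 1205417 to 7532591 counts make 3 counts, the limit that a count of 0 allows, 2.49 to 0.398 CPM; reads carry no molecular identifiers, so limits cover counting error only. No 2 libraries of a group agreed within counting noise, the lowest chi-square per degree of freedom being 43.1.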

Additional observations from a re-analysis of the deposited data

Results flagged for a closer look

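Among 94 sets of values examined (named microRNAs and library measures, each within 1 group), 12 held a library whose gap to its nearest neighbour was large against the range of the group by Dixon's criterion, which chance alone meets in about 1 of 20 sets. Of these, 11 were TAC+PDE9A-I replicate 5. That library held miR-486b-5p at 235739 CPM, let-7b-5p at 5021 CPM, miR-664-5p at 52.8 CPM and miR-8112 at 38.5 CPM, each above the rest of its group. It held let-7f-5p at 3766 CPM and miR-190a-5p at 1.19 CPM, each below the rest. Its library measures also stood apart: 386 microRNAs after thinning, 47.2% count-weighted GC content, 25.7% of counts in miR-486b-5p, 51.8% in cardiac muscle microRNAs and 0.0298% in markers of other tissues. The remaining one was miR-190a-5p in TAC+PDE5A-I replicate 2, at 6.75 CPM against 1.84 to 2.9 CPM in the other sildenafil libraries.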

How the results depend on the processing

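Over the 11 libraries edgeR called 0 higher and 0 lower with total-count or upper-quartile scaling, no filter, GC correction, depth or ear tag covariate and the ear tag 500s alone. Calls were 3 higher and 58 lower without libraries under 2000000 counts, 27 and 86 with DESeq2, 85 and 110 in the fit of all 4 groups, 99 and 172 with limma-voom weights (added after seeing the data), and 0 and 3 after thinning. With each library left out in turn they ran from 0 to 69 higher and from 0 to 88 lower. The cause of these differences was not tested. With the replicate number as a block edgeR called 0, with 183 arms under 0.05 before adjustment, and with block and GC correction 0; same-numbered libraries deviated together in 3 of 5 pairs (correlations from -0.19 to 0.42) and 2 of 10 libraries correlated best with their own number, so the numbers were not taken as pairs.

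Without libraries under 2000000 counts, calls were 24 higher and 13 lower with GC correction, 13 and 47 with total-count scaling, 31 and 98 with DESeq2 and 1 and 3 in the ear tag 500s alone (the last 2 added after seeing the data), and 1 to 10 higher and 10 to 53 lower with each library left out. Library differences without them were -2570635 total counts, 1.12 percentage points of GC content, and -4.75, -1.75 and -0.0961 percentage points of smooth muscle, endothelial and other-tissue markers, none passing. With each library left out the differences ran from -3861508 to -2664253 counts, 1.71 to 2.41 for GC content, -6.84 to -5.01, -2.56 to -1.76 and -0.151 to -0.109 for those markers, -0.00856 to 0.0139 for leukocyte and -0.0574 to -0.0325 for erythroid markers, 8.82 to 13.9 for the share of miR-486b-5p, 15.9 to 24.1 for cardiac muscle, and -132 to -86.4 and -122 to -79 microRNAs detected before and after thinning.

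Directions of named arms turned as follows over the 11 libraries: with GC correction miR-29a-3p 0.82, miR-146b-5p 0.11, miR-22-3p 0.28, let-7f-5p 0.33 and miR-190a-5p 0.42; with block and GC correction miR-29a-3p 0.83, miR-22-3p 0.35, let-7f-5p 0.53 and miR-190a-5p 0.31. With the depth covariate miR-199a-5p was 0.27, miR-132-3p -0.18, miR-126a-3p 0.10, miR-146b-5p 0.32, miR-451a 0.02, miR-22-3p 0.02 and miR-486b-5p -0.02. In the ear tag 500s miR-214-3p was -0.38, miR-132-3p -0.12, miR-126a-3p 0.05 and miR-22-3p 0.03, and without shallow libraries miR-214-3p was -0.21 and miR-132-3p -0.04. In the fit without shallow libraries GC correction gave miR-29a-3p 0.50, miR-132-3p 0.09, miR-126a-3p 0.15, miR-146b-5p 0.25, miR-451a 0.32, miR-22-3p 0.27 and let-7f-5p 1.05; miR-132-3p was 0.09 with total-count scaling and 0.01 with DESeq2. With each library left out there, values on both sides of 0 were found for miR-214-3p (-0.58 to 0.39), miR-132-3p (-0.39 to 0.54), miR-126a-3p (-0.41 to 0.01), miR-22-3p (-0.26 to 0.02) and let-7b-5p (-0.09 to 0.98). A count of 0 in the shallowest library allows 2.49 CPM, which limits miR-144-3p and miR-190a-5p.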
